A study of Mus musculus with 3 samples.

Results

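Brachyury, the product of the gene T, is the founding member of the T-box family, whose proteins share a DNA-binding domain and recognise related short sequences. The regions described here are those of a Brachyury chromatin immunoprecipitation and sequencing (ChIP-seq) list that lie at 5 genes of this family: T itself, Tbx6, Eomes, Tbx3 and Tbx2. A region was taken as a member if its midpoint lay within 100 kb of the start position given for the gene on the mouse build mm9. By this rule 9 of the 3160 listed regions were members, or 0.285% of the list (exact Clopper-Pearson 95% interval 0.130% to 0.540%, for counting error only). Each of the 5 genes had at least 1, and no gene was without a region. The genes were proposed with the list already known, so the numbers describe these loci and were not tested.

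The cells were mesoendoderm cells, a common precursor of mesoderm and endoderm. They were made in serum-free culture with Activin A, a secreted factor that signals through Smad proteins, from D3, an established mouse embryonic stem cell line with the strain origin (C3H/HeH x 101/H)F1. All 3 libraries came from this 1 line. Chromatin was precipitated with 1 of 2 custom rabbit antibodies to Brachyury (#1 or #2), both raised against residues 249 to 436 of Brachyury fused to GST, or, as a mock, with pre-immune IgG. The regions come as 1 list with positions only, called common in its name. It holds no height, score or value per library, the read depth is unknown, and each antibody has 1 library, so no region could be compared between antibodies or with the mock. The list has no expression values, so the cell type could not be checked against markers.

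The 5 genes act at different steps of early development. T is needed for posterior mesoderm and the notochord. Eomes is needed for definitive endoderm and for mesoderm to leave the primitive streak, and Tbx6 directs paraxial mesoderm toward muscle and skeleton precursors and away from a neural fate. Tbx3 and Tbx2 are close relatives that act mostly as repressors, with roles in the heart and limbs, and Tbx3 also in stem cells. T-box proteins bind variants of a short recognition sequence, written AGGTGTGA or, on the other strand, TCACACCT, alone or in pairs.

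The RefSeq promoter table, which gives 250 bases before to 50 bases after each start on build GRCm38.p6, held 3 of the 5 genes: T, Tbx6 and Eomes. Only their sequences could be printed, and these run in the direction of transcription. At these genes the listed regions lay off the start, as described further on. Capitals mark the only stretch that matched a searched sequence.
T, chr17:8434173-8434472, plus strand: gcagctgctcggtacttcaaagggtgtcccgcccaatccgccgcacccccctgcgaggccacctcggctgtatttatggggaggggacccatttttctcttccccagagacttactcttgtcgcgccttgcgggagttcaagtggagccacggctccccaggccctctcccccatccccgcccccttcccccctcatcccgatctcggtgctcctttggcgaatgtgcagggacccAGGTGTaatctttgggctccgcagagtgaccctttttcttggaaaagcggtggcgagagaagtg
Tbx6, chr7:126781233-126781532, plus strand: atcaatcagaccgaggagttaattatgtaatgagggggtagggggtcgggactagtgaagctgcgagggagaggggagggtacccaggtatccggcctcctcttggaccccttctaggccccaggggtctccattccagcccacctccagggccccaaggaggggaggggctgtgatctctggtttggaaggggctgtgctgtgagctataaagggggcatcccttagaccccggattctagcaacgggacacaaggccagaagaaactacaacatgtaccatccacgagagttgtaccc
Eomes, chr9:118477939-118478238, plus strand: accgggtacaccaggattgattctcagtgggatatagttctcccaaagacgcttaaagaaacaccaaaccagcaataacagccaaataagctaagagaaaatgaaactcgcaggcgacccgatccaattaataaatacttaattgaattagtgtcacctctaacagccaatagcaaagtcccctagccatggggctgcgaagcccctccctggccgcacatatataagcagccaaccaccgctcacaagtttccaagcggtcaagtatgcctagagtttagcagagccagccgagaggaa

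The promoters were searched on both strands for 5 sequences. These were AGGTGTGA, its inner parts GGTGTG and GTGTGA (which overlap it and each other), the Tcf/Lef sequence CTTTGAT of Wnt signalling, and the Smad sequence GTCTAGAC of Activin signalling. None of the 5 was found in the promoters of T, Tbx6 or Eomes (0 motifs with a match). Among all 32851 promoters of this length in the table, AGGTGTGA was present in 419 (1.28%), GGTGTG in 6257, GTGTGA in 4760 (14.5%), CTTTGAT in 1225 (3.73%) and GTCTAGAC in 70 (0.213%). The shorter AGGTGT, searched only after the sequences had been seen, occurred in the T promoter at bases 237 to 242 of the printed stretch, just before the start, and in 13.7% of all promoters. A match or its lack describes these letters in this window. The sequences under the listed regions were not analysed here, since no mm9 genome was used. The G and C content was 61.7% in the T promoter, 57.7% in that of Tbx6 and 47.3% in that of Eomes, against a median of 52.7% over the table.

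T had 3 regions within 100 kb, all on chromosome 17, and they lay far from the start. The first, at 8581544 to 8582828, was 1285 bp wide, with its midpoint 47.8 kb before the start position of 8.63 Mb. The next, at 8588880 to 8590164, was also 1285 bp wide and lay 40.5 kb before it. T is transcribed toward higher coordinates, so both are upstream. The last, at 8656144 to 8656743, measured 600 bp and lay 26.4 kb downstream. The start positions are known to the nearest 10 kb, so every distance here may be off by up to 5 kb. Even so, the downstream region began at least 21.1 kb after the start. As T spans 8074 bp in the RefSeq table, that is at least 13.1 kb past its end. The next protein-coding gene on that side in the RefSeq order is Pde10a, a phosphodiesterase gene.

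The upstream regions of T form a close pair, with midpoints 7336 bp apart and a gap of 6051 bp. Their widths are the same to the base. Of the 162 pairs of adjacent regions with midpoints within 10 kb in the whole list, this was the only pair of equal width (1 pair), and over any distance 6 of 3140 adjacent pairs were equal. The list holds 3 regions of 1285 bp, these included. This match was picked out after the values were seen. No region beyond the 3 lay within 500 kb of the T start.

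Counts were set beside windows of the same size moved along the same chromosome in steps of 200 kb, between the outermost listed regions and clear of the gene's own window. On chromosome 17, 4 of 456 shifted windows, or 0.877% (exact Clopper-Pearson 95% interval 0.240% to 2.23%), held at least 3 regions as the T window did. Their mean was 0.322 regions and 75.7% were empty. Of these 4 windows, 1 held more. The share was 0.439% with neighbours under 1 kb apart merged and 1.59% with windows moved in steps of 50 kb. As T gained no region farther out, it rose to 7.05% of windows reaching 200 kb to either side and 25.6% of those reaching 500 kb. By nearness T did not stand out to the same degree, since 7.68% of the shifted positions had a region as near as 26.4 kb, or 9.21% at the farthest the rounding allows. The shifted windows include stretches with few genes and were not matched on gene content, so they describe the chromosome and not other gene starts. The intervals given for shares of shifted windows, here and below, treat the windows as independent. They do not cover the choice of window positions.

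Eomes had 2 regions on chromosome 9, and they were the widest of the 9. The nearer one, at 118395597 to 118397225, was 1629 bp wide. Its midpoint lay 6.41 kb downstream of the start position of 118.39 Mb, or between 1.41 and 11.4 kb with the rounding. Eomes spans 7947 bp toward higher coordinates, so whether this region lies within the gene or past its end could not be settled. Its lower edge came no closer than 0.60 kb to the start, so the printed promoter is not under it if the start position is the RefSeq one. The other, at 118298184 to 118299645, was 1462 bp wide and lay 91.1 kb upstream, the member closest to the 100 kb limit on its inner side. The pair stood 97.5 kb apart, and the only other region within 500 kb of Eomes lay 440 kb upstream.

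At least 2 regions were found in 39 of 594 shifted windows of chromosome 9, or 6.57% (interval 4.71% to 8.87%), with a mean of 0.305 regions. A region as near as that of Eomes was found at 2.19% of the shifted positions, and at 4.55% if the rounding put it at its farthest. The median distance from a shifted position to the nearest region was 305 kb.

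Tbx6 had 1 region, on chromosome 7 at 133928411 to 133929375, with a width of 965 bp. It lay 8.89 kb downstream of the start position of 133.92 Mb, or between 3.89 and 13.9 kb with the rounding. Its lower edge was at least 3.41 kb from the start. As Tbx6 spans 4066 bp, an overlap with the last part of the gene could not be settled. The neighbouring protein-coding gene on that side is Ppp4c, which encodes a phosphatase subunit, and on the other side Ypel3. The region was not assigned to any of them.

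A count of 1 was common on chromosome 7, where 136 of 742 shifted windows, or 18.3%, held at least 1 region. The count at Tbx6 therefore does not set it apart. Nearness was less common, with a region as near at 1.89% of the shifted positions, or 3.10% at the farthest the rounding allows. Farther out the Tbx6 locus had more regions than the other 4 genes. Within 500 kb there were 6, with the others at 273 kb on the lower side and at 152, 249, 250 and 432 kb on the higher side. Of 147 windows of that size, 2.72% held as many. The regions at 249 and 250 kb had a gap of only 42 bp between them. The count within 500 kb was not recomputed with such neighbours merged.

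Tbx3 had 1 region, and of the 5 genes its region lay nearest to the given start. It ran on chromosome 5 from 120120260 to 120121151, with a width of 892 bp, and its midpoint was 705 bp from the start position of 120.12 Mb. With the rounding the distance may be up to 5.7 kb, on either side. At 0.135% of the shifted positions, or 1 of 741, a region was as near, and at 1.35% a region was within 5.7 kb. The count of 1 was ordinary, since 22.5% of the shifted windows (167 windows) held at least 1. The region stood alone. Its closest neighbour in the list was 501 kb away, and within 500 kb Tbx3 had fewer regions than the mean of 1.42 in shifted windows. Its neighbours among protein-coding genes are Med13l and Tbx5, another T-box gene.

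Tbx2 had 2 regions on chromosome 11. The nearer, at 85645282 to 85646236, was 955 bp wide and lay 4.24 kb from the start position of 85.65 Mb, on the side of lower coordinates. As the rounding is larger than that distance, the region may cover the start or lie on either side of it. The other, at 85588950 to 85589707, measured 758 bp and lay 60.7 kb away toward lower coordinates, where the neighbouring protein-coding gene is Bcas3. On the other side the neighbour is Tbx4, a further T-box gene.

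Just outside the limit of the Tbx2 window lay 2 more regions, at 101 and 102 kb, of 513 and 1077 bp, with a gap of 151 bp between them. With the start position 5 kb lower they would be members and Tbx2 would have 4 regions. As given, its 2 regions were matched or exceeded in 54 of 588 shifted windows of chromosome 11, or 9.18% (interval 6.97% to 11.8%), with a mean of 0.400 regions. Within 200 kb of Tbx2 there were 4, and 2.39% of the 293 windows of that size held as many. These 4 include both regions with the 151 bp gap between them. The counts within 200 and 500 kb were not recomputed with such neighbours merged. The share was 16.7% for the 1 region within 50 kb and 13.8% for the 5 within 500 kb. A region as near as 4.24 kb was found at 2.55% of the shifted positions, or 4.08% at the farthest the rounding allows.

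**Figure D1:**
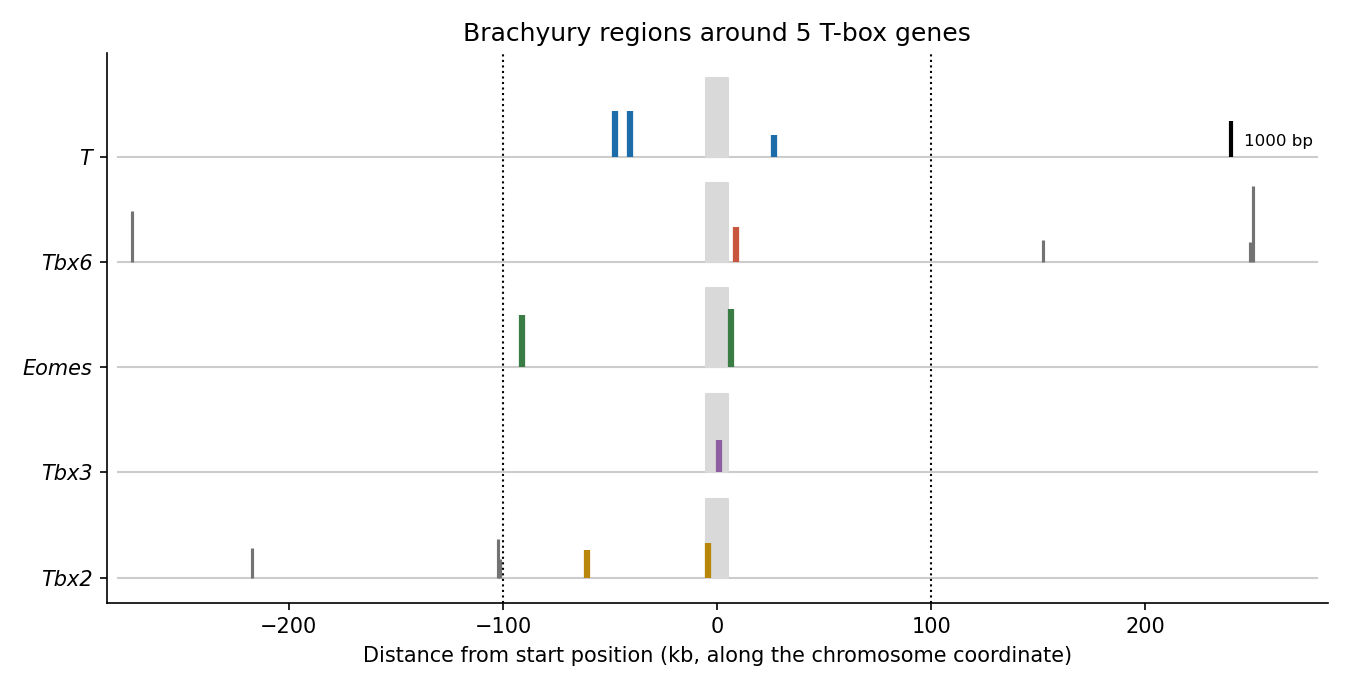
Regions around the start positions of the 5 genes, drawn by distance from the start in kb along the chromosome coordinate, with bar height giving the width (scale bar 1000 bp). Coloured bars are the 9 members, thin grey bars are regions outside the 100 kb limits (dotted lines), and the grey block is the 5 kb rounding of the start. The Tbx6 region at 432 kb and the Eomes region at 440 kb lie beyond the axis and are not drawn. At T all 3 bars stand clear of the block, while at Tbx3 and Tbx2 a bar stands within it or at its edge.

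Set side by side, the 5 genes fell into different layouts. By count within 100 kb of the positions as given, T had 3 regions, Eomes and Tbx2 had 2 each, and Tbx6 and Tbx3 had 1 each. This order depends on the window and the rounding: Tbx2 would have 4 with its start 5 kb lower, and within 500 kb Tbx6 had 6 and Tbx2 had 5. By distance the order was Tbx3, Tbx2, Eomes, Tbx6 and T. The distances of the first 4 overlap once the rounding is allowed for, so their order is not settled. T is farther than all of them, as its nearest region lay at least 21.4 kb from the start and that of Tbx6 at most 13.9 kb. The map of regions by distance shows both features for the regions that lie within its axis.

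**Figure D2:**
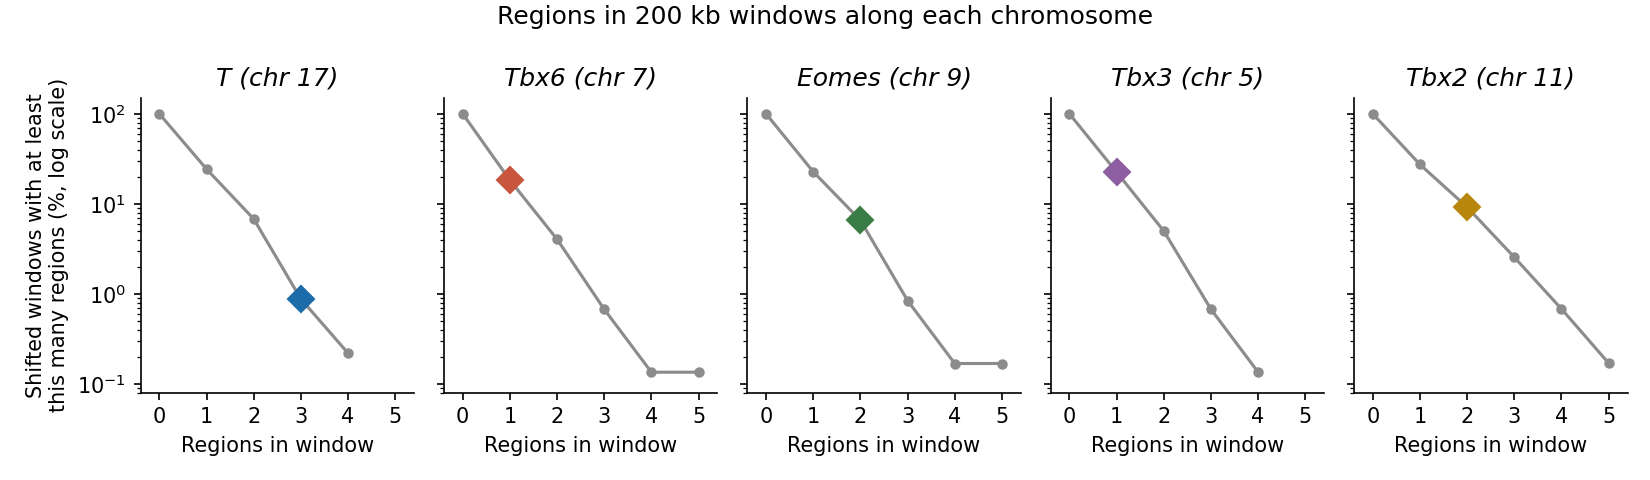
Share of shifted 200 kb windows on the same chromosome (percent, log scale) that hold at least the number of regions on the horizontal axis. Grey points are the shifted windows, and the coloured diamond marks the count at the gene, from 0.877% for T to 22.5% for Tbx3.

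Together the 5 windows held 9 regions, where the means of the shifted windows add up to 1.55, a ratio of 5.82. The ratio was 9.03 within 50 kb, with 7 regions, 3.89 within 200 kb, with 12, and 2.34 within 500 kb, with 18. Summed over the 5 genes, the ratio was thus highest in the smallest window. Gene by gene, it fell at each step only for T and Tbx3. For Tbx2 it was 4.95 within 50 kb, 5.0 within 100 kb, 5.03 within 200 kb and 2.53 within 500 kb. For Eomes it was 6.54 within 50 kb, 6.56 within 100 kb, 3.27 within 200 kb and 1.97 within 500 kb. For Tbx6 it was 8.53 within 50 kb, 4.24 within 100 kb, 4.28 within 200 kb and 5.22 within 500 kb. Of the 7 regions within 50 kb, 5 were the nearest region of their gene, and other genes were not compared. For T and Tbx3 no region was added beyond 50 kb, whereas for Tbx6 the count rose from 1 within 100 kb to 6 within 500 kb. On all 19 autosomes together, 20.1% of 200 kb windows held at least 1 region, 4.75% at least 2 and 1.13% at least 3.

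**Figure D3:**
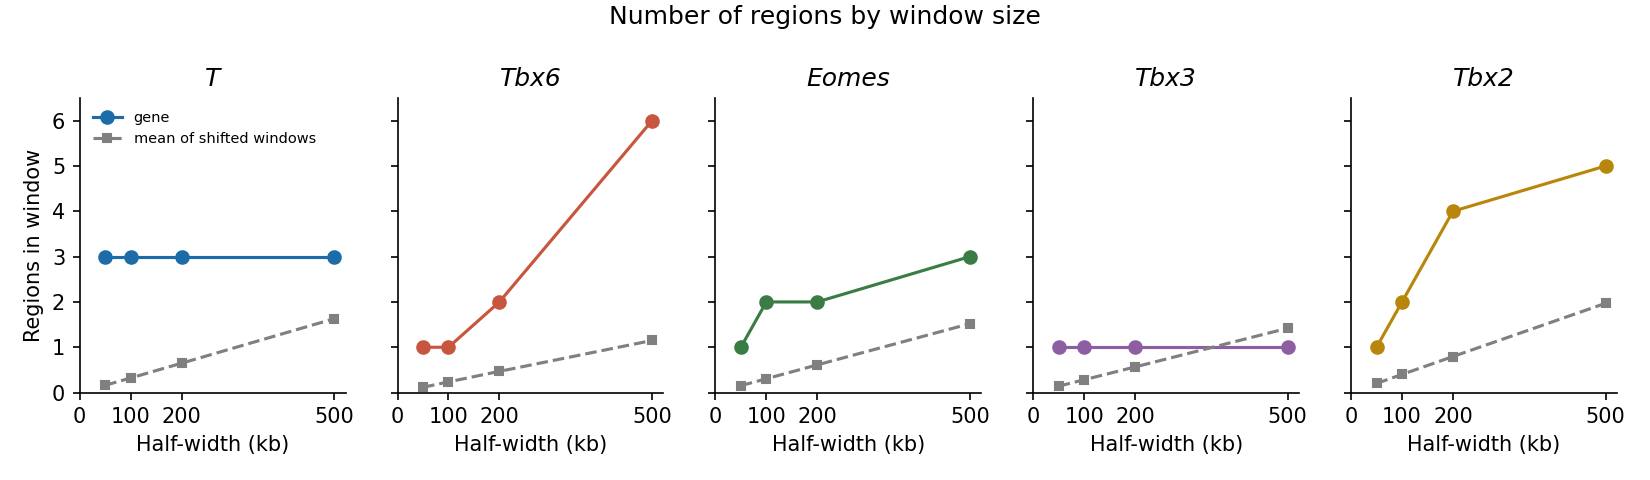
Number of regions around each gene by the distance reached to either side (50, 100, 200 and 500 kb). Coloured points are the gene's count and grey squares the mean of shifted windows on its chromosome; the gene's count is above the mean at each size, except for Tbx3 at 500 kb (1 against 1.42).

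The 9 regions had widths from 600 to 1629 bp, with a median of 965 bp, against 850 bp over the list. Widths above the median of the list were found in 7 of the 9. Regions of 1200 bp or more made up 4 of the 9 and 10.9% of the list (345 regions). These 4 were the upstream pair of T and both regions of Eomes. The Eomes regions were wider than 98.0% and 95.9% of the list, and those of the T pair wider than 92.3%. The regions of Tbx6, Tbx2 nearest to the start and Tbx3 lay in the middle, wider than 69.1%, 67.7% and 57.4% of the list. The narrowest were the distal Tbx2 region, wider than 36.0%, and the downstream T region, wider than 14.0%. If the list holds the overlap of both antibodies' regions, as its name may mean, a width is that of the shared part; how the list was combined is not given in the sources used here.

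**Figure D4:**
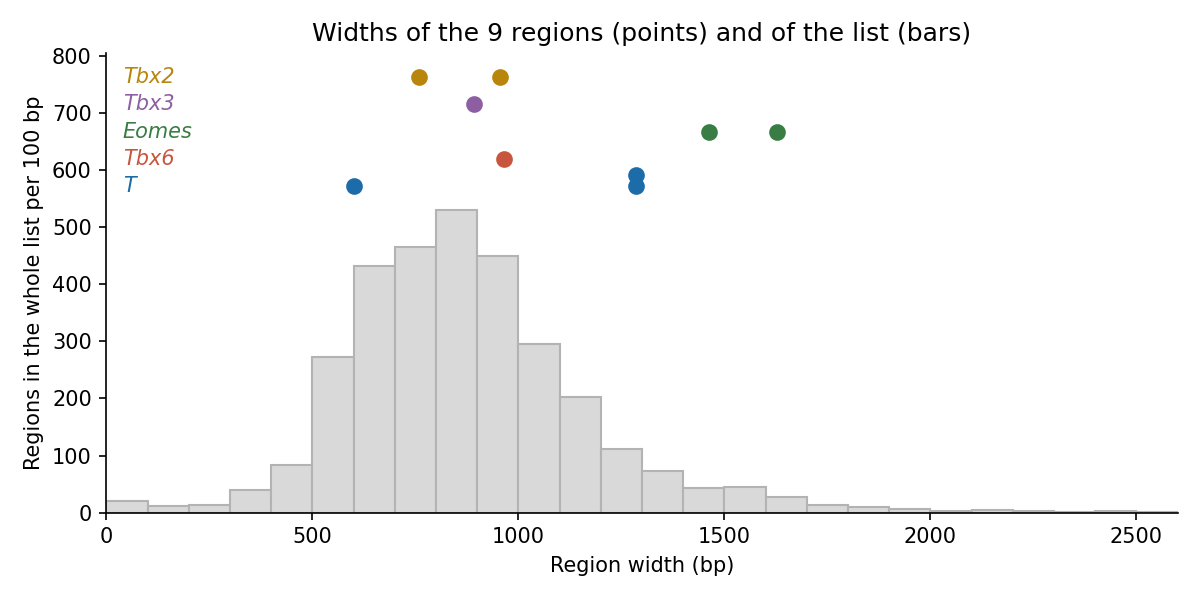
Widths of the 9 regions by gene (points, bp) above the widths of the whole list (bars, regions per 100 bp). Points of equal width at T are stacked; the axis ends at 2600 bp, which leaves out the 2 widest regions of the list. Both Eomes points and a pair of T points lie at 1285 bp or above, to the right of most bars.

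Of the 9 regions, only the T pair had another listed region within 10 kb, 2 of 9 or 22.2%, against 9.68% of all regions. Within 50 kb it was found for 3 of 9 or 33.3%, the third being the distal Tbx2 region, 40.6 kb from one of the regions just outside the limit, against 26.8% of all regions. The 9 regions cover 9.83 kb in all.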

How the data were processed

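The authors deposited 1 list for the series, with chromosome, start and end of each region in base pairs (another unit than a signal or score) and no header. The submitters' processing notes name Bowtie, MACS2 and mm9, without version, role or setting. For thresholds, the role of the mock library and the joining of both antibodies' lists, the method is not given in the sources used here. Precision per region could not be estimated, as the depth is unknown.

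Positions are printed counted from 1, by adding 1 base to each deposited start. Members are the regions with midpoint within 100 kb of start positions given in Mb to the nearest 10 kb. Members, lists and motifs were chosen with earlier results of these data known. The genes named are the 5 members and, from RefSeq (GRCm38.p6, used for names, gene order, gene length and promoters only), their neighbours. Shifted windows of 200 kb served as a description of the background, with no p-value. Protein identity within the family, listed in the plan, was not analysed here. The counting in windows was first checked on simulated positions (200 of 200 planted counts recovered). This checks the arithmetic on randomly scattered positions and says nothing about the listed regions themselves. Python 3.11.15, numpy 2.4.6, scipy 1.17.1, pandas 2.3.3 and matplotlib 3.10.9 were used.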

Additional observations from a re-analysis of the deposited data

How the results depend on the processing

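No paired analysis was possible because the positions come with no values per library, and a group has 1 library. Of 92 recomputed values, 26 moved. The other 66 include counts that changed by at most 1.5 times and distances that did not change. Also among them are median widths that moved by no more than the standard deviation of the 9 widths (341 bp). The remaining ones are shares within the counting interval of the share as reported, which is wide for T. The count at T was 3 under every alternative but the restriction to regions at or above the list's median width (2), and that at Tbx3 was 1 under all. At Tbx6 the count was 2 within 200 kb and 6 within 500 kb. At Eomes it was 1 within 50 kb. At Tbx2 it was 1 within 50 kb, 4 within 200 kb, 5 within 500 kb, 4 with the start position 5 kb lower and 1 at or above the median width. The total was 18 within 500 kb. Moving the start by 5 kb lower or higher moves each nearest distance by construction: to 31.44 or 21.44 kb for T, 13.89 or 3.89 kb for Tbx6, 11.41 or 1.41 kb for Eomes, 5.7 or 4.3 kb for Tbx3 and 0.76 or 9.24 kb for Tbx2. At or above the median width, the region nearest to T lay at 40.48 kb. The share of shifted windows with as many regions as T was 0.439% with neighbours merged and 1.59% with steps of 50 kb, against 0.877%. Among shifted windows that hold at least 1 region, the share with as many was 3.60% for T, 28.9% for Eomes, 33.5% for Tbx2 and, as that choice fixes, 100% for Tbx6 and Tbx3. Over all 19 autosomes it was 4.75% for Tbx2 in place of 9.18%; the cause was not tested. Merging neighbours with a gap under 1 kb, leaving out regions under 300 bp and counting any window overlap were each tried within 100 kb. None of these changed a count by over 1.5 times.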
